A study of Mus musculus with 8 samples.

Results

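The genes described here encode 6 families of ubiquitin ligases and ligase adaptors, named Rnf, Trim, Fbxo, Fbxl, Fbxw and Klhl. Members were chosen by name alone, as every gene in the m6A peak lists of the series whose symbol begins with one of these prefixes followed by a digit. They were 156 genes of the 9779 genes with a peak. Merged over the 4 immunoprecipitated libraries, their 647 peaks formed 340 of the 21168 m6A regions.

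The study profiled N6-methyladenosine (m6A) on mRNA of mouse embryonic fibroblasts (MEFs) by MeRIP-seq, and asked how the mark differs when nutrients are withdrawn. MEFs were wild type C57BL/6 cells taken from embryos at day 13.5 and used at passages 5 to 6, in both groups. Control cells stayed in full medium, and starved cells spent 2 h in nutrient-deprived medium. Each group had 2 replicates, and each replicate had a library immunoprecipitated with an m6A antibody (IP) and an input library without antibody. The 8 samples thus gave 4 IP libraries with a peak list each. The study describes the replicates as biological. The files hold no read counts, and the depth of the libraries is unknown.

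Ubiquitin ligases attach ubiquitin to chosen proteins and so set how long those proteins last or where they act. RING finger (Rnf) and most tripartite motif (Trim) proteins carry a RING domain that brings the ubiquitin-loaded enzyme to the substrate. F-box proteins (Fbxo, Fbxl with leucine-rich repeats, Fbxw with WD40 repeats) are the substrate receptors of SCF ligases built on CUL1, and Kelch-like (Klhl) proteins play that part in ligases built on CUL3. Several members act on autophagy or on nutrient signalling, the processes that starvation engages. m6A is written on adenosines in a short sequence context whose most used core is GGAC.

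The following stretches show GGAC inside the regions on which the values below turn. Each is the spliced transcript strand read 5′ to 3′ from GENCODE M21 on GRCm38 (the assembly of mm10), with GGAC in capitals. Where a region held several, the one under the peaks of the most libraries was taken, and among those the nearest to the centre of the strongest peak. In the first 7 the stretch lay under a peak of all 4 IP libraries, and in the last 2 under the peaks of both control libraries.
Fbxw7: gatacccagcaaGGACaagtggaggaaa
Rnf103: aaagagtacagtGGACgcaagattgaag
Fbxo11: gagaaaggaagaGGACagttcatagaga
Rnf146: tgctgatggtgcGGACagtggatcagca
Trim33: ctacttctgtatGGACacagtagaatat
Klhl26: atgccgaccagtGGACcagtgtgacacc
Trim44: catgttcccaagGGACcaggggttgtat
Rnf168: gcaagaagagcaGGACagattgttagca
Fbxo34: gagcttccacatGGACagcacagatcta
The Fbxw7 stretch is at chr3:84903780-84903807 on the plus strand, Rnf103 at chr6:71508954-71508981 (plus), Fbxo11 at chr17:88002816-88002843 (minus) and Rnf146 at chr10:29347268-29347295 (minus). Trim33 is at chr3:103355331-103355358 (plus), Klhl26 at chr8:70451655-70451682 (minus) and Trim44 at chr2:102304309-102304336 (minus). Rnf168 is at chr16:32298948-32298975 (plus) and Fbxo34 at chr14:47530315-47530342 (plus). Those of Trim33 and Trim44 lie in the 3′ UTR and the other 7 in coding sequence. A match marks letters only, since a peak spans many bases and does not give the methylated adenosine.

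The families had m6A peaks in every library of control and starved cells. Control IP replicates 1 and 2 held 181 and 161 family peaks in 115 and 102 genes. Starved IP replicates 1 and 2 held 162 and 143 family peaks in 102 and 100 genes. The groups did not separate by number of peaks, since starved replicate 1 lay between the control replicates. The difference of the means was -18.5 peaks and -7.5 genes (exact permutation test over libraries, two-sided, p = 0.667 for both, adjusted p = 0.833 over 10 comparisons of this kind). Both turned positive, to 10.5 peaks and 6.5 genes, among peaks under a false discovery rate of 20%. Family peaks had a median false discovery rate of 20.06% and 17.1% in control and 16.29% and 14.36% in starved replicates 1 and 2. Peaks of other genes had 21.2% and 18.9% against 15.85% and 15.82%. Without control replicate 1 the differences were -8.5 peaks and -1 gene. With 2 libraries against 2 the smallest p is 0.33, so that no comparison of starved with control cells can pass a threshold of 0.05. As a share of all peaks in a list, family peaks made up 1.79% and 1.63% of the control lists and 1.66% and 1.59% of the starved lists.

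Fold enrichment, the authors' ratio of IP signal over the local input background at a peak, had a median of 14.9 and 12.2 over family peaks in control replicates 1 and 2, and of 15.5 and 18.6 in starved replicates 1 and 2. Both starved medians lay above both control medians. On the log2 scale the group difference was 0.33 (exact permutation p = 0.33, the smallest possible, adjusted p = 0.833). Peaks of all other genes had control medians of 12.2 and 12.3 and starved medians of 14.6 and 14.7. The difference between family and other peaks was larger in starved than in control libraries by 0.07 on the log2 scale (exact permutation p = 0.667), and it became negative when control replicate 2 or starved replicate 2 was left out, down to -0.08. The authors' score of a peak, minus 10 times the log10 of its p-value, piles up at 3100, and the share of family peaks with a score of 3100 or more was 12.2% and 13.7% for control and 31.5% and 35.7% for starved libraries. In other genes it was 17.1% and 13.2% against 28.5% and 27.6%. This shift of the whole lists moved with every higher starved value given below, and its part in them was not tested. Over the 4 libraries, family peaks had a median log2 fold enrichment 0.18 ± 0.17 (SD, n = 4) above that of other peaks, higher in 3 of 4 libraries (exact sign-flip test, two-sided, p = 0.25, adjusted p = 0.35 over 7 comparisons, smallest possible p = 0.13).

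**Figure D1:**
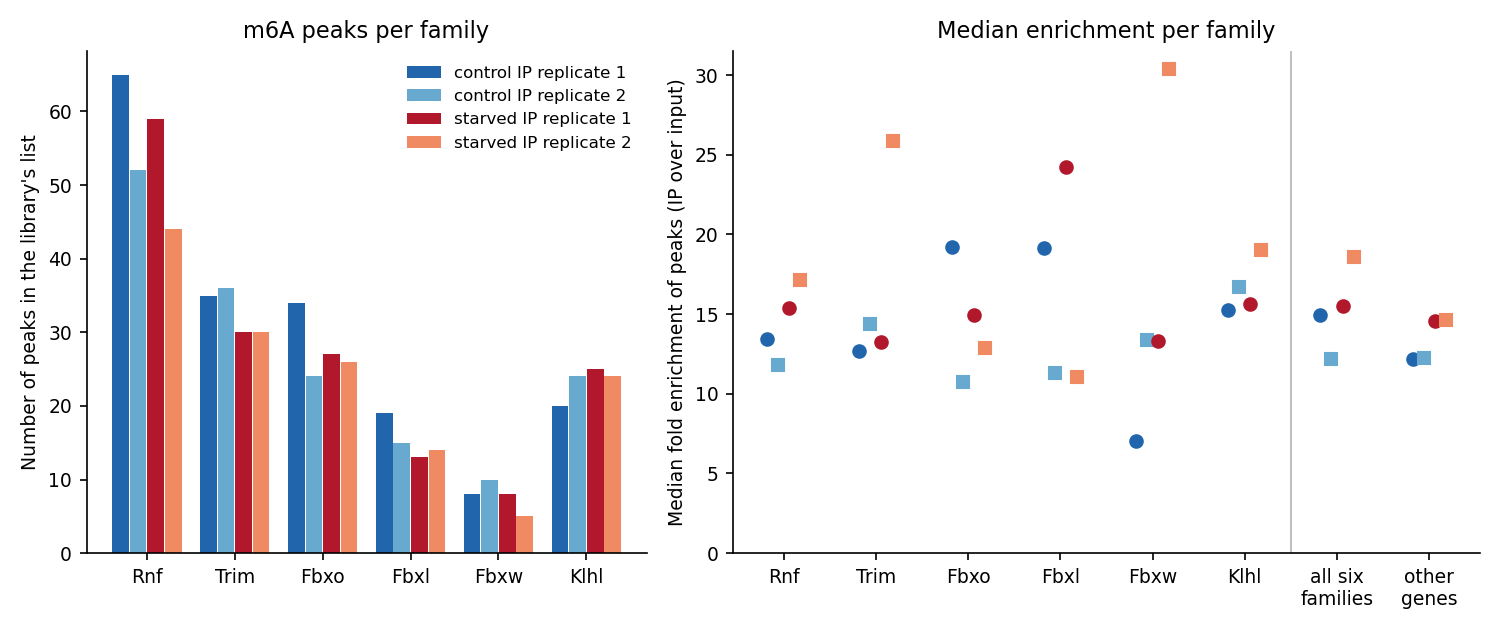
Number of peaks (left, bars from 0) and median fold enrichment of peaks (right, IP over input) of each family in the 4 IP libraries; blue marks control and red or orange starved replicates, with circles for replicate 1 and squares for replicate 2. Rnf led in number with 44 to 65 peaks, and the median of starved replicate 2 was far above the other libraries in Trim (25.8) and Fbxw (30.4).

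The 6 families differed in how many of their genes carried a peak. The RefSeq gene list names 266 coding genes with these prefixes, and 112 of them had no peak in any library. Outside the families, 9623 genes had a peak, against 21634 annotated coding genes. In Fbxl, whose members include receptors of the circadian and iron pathways, 3 of 18 genes had none. In Fbxw, most of whose mouse genes belong to a cluster of closely related copies, 18 of 24 had none. The share without a peak was 36.1% in Rnf (30 of 83), 36.1% in Fbxo (13 of 36), 37.8% in Klhl (14 of 37) and 50% in Trim (34 of 68). The absence of a peak cannot be told apart here from a transcript that is not expressed, since the lists give no RNA level. Members that share reads with near copies, such as Trim30a, Trim12a, Trim34a and Trim34b, or Rnf113a1 and Rnf113a2, are uncertain.

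Genes with a peak numbered 54 in Rnf, 34 in Trim, 24 in Fbxo, 23 in Klhl, 15 in Fbxl and 6 in Fbxw. Of the 156 members, 56 had a peak in all 4 libraries (35.9%), against 29.2% of all genes. By family this share ran from 32.4% in Trim to 39.1% in Klhl. A further 32 members had a peak in 3 libraries, 31 in 2 and 37 in 1. Fbxw7 and Fbxw2 were the Fbxw genes called in all 4 libraries. A gene could be called in every library without a shared site: of the 56 genes, 19 had no single region with a peak in all 4, among them Trim56, Fbxl18 and Klhl22. The matching count over all genes was not taken. Over all genes, 2856 had a peak in all 4 libraries, beside only 2257 regions called in all 4.

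The SD over the 4 libraries of a family's median fold enrichment ran from 1.69 in Klhl to 10.0 in Fbxw. The median of Rnf peaks was 13.4 and 11.8 in control and 15.4 and 17.1 in starved replicates 1 and 2. Trim peaks had medians of 12.7, 14.4, 13.3 and 25.8 in the same order of libraries. Both starved values of Rnf were above both control values, while starved replicate 1 of Trim lay between the control replicates. Klhl peaks stood at 15.3, 16.7, 15.6 and 19.0, and Fbxo peaks at 19.2, 10.8, 14.9 and 12.9. In Fbxl the medians were 19.2, 11.3, 24.2 and 11.04, and in Fbxw, from 5 to 10 peaks a library, 7.02, 13.4, 13.3 and 30.4. In Fbxo and Fbxl the 2 control libraries enclosed or overlapped the starved ones, so that no family other than Rnf had separate groups.

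Along the transcript, family peaks lay more in coding sequence and less in the 5′ UTR than peaks of other genes, in each of the 4 libraries. The centre of a peak put it into 1 of 4 segments: 5′ UTR, coding sequence, stop codon (up to 100 nt to each side) and remaining 3′ UTR. This was possible for 628 of the 647 peaks. Coding sequence held 54.9% and 51.3% of family peaks in control and 56.4% and 46.8% in starved replicates 1 and 2, against 44.6%, 46.5%, 47.0% and 45.8% in other genes. The mean difference was 6.37 ± 4.34 percentage points (SD, n = 4, higher in 4 of 4 libraries, exact sign-flip p = 0.13, the smallest possible, adjusted p = 0.35). The 5′ UTR held 1.73%, 3.80%, 0.641% and 3.55% of family peaks, against 4.45% to 5.36% in other genes. That difference was -2.46 ± 1.67 points (SD, n = 4, lower in 4 of 4 libraries, exact sign-flip p = 0.13, adjusted p = 0.35). Neither passed a threshold of 0.05, which 4 libraries cannot reach. The exons that held the peaks were longer in the families, with medians of 1679 to 1818.5 nt over the 4 libraries against 1319 to 1445 nt in other genes. The share of peaks in the last exon was 63.5% ± 1.77 (SD, n = 4) in the families and 59.9% ± 1.61 (SD, n = 4) in other genes. Exon length therefore moved with the placement, and its part was not tested.

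**Figure D2:**
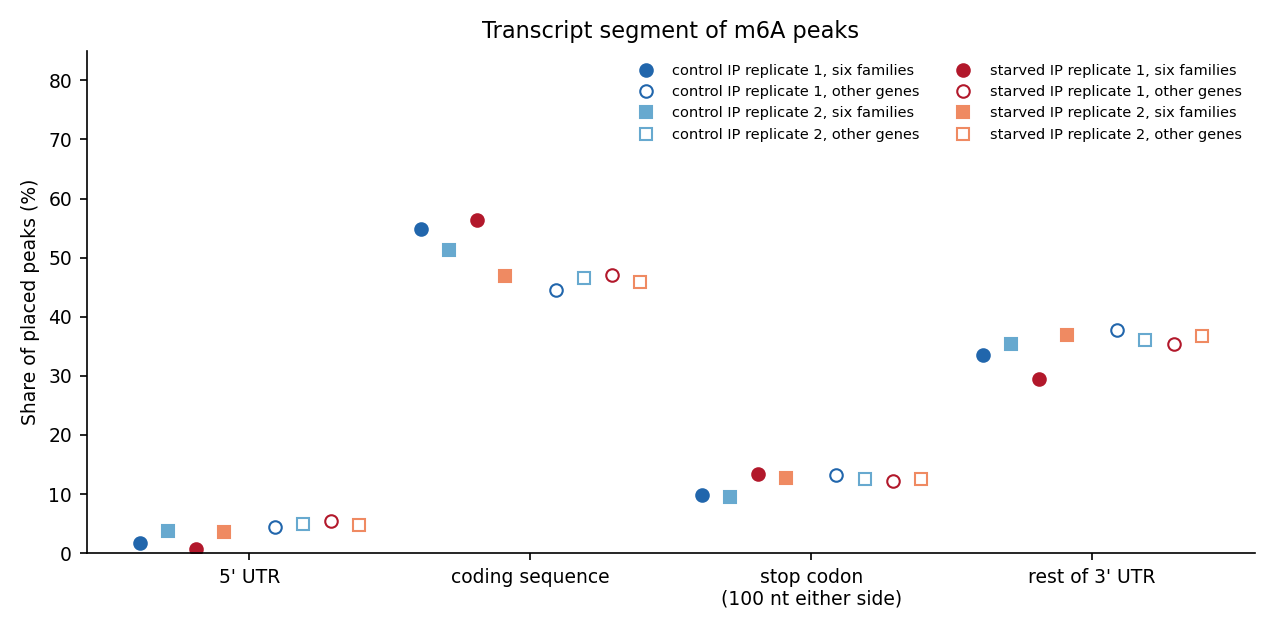
Share of placed peaks in each transcript segment (vertical axis, percent), with filled marks for the 6 families and open marks for all other genes, 1 mark per IP library. Filled marks lie above open marks for coding sequence in every library and below them for the 5′ UTR, while those of the stop codon window are lower in control (9.83% and 9.49%) than in starved libraries (13.5% and 12.8%).

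Around the stop codon, where m6A is known to gather, family peaks made up 9.83% and 9.49% in control and 13.5% and 12.8% in starved replicates 1 and 2. The groups did not overlap, and the difference was 3.45 points (exact permutation p = 0.33, the smallest possible, adjusted p = 0.833). With a window of 50 nt in place of 100 nt the difference was 0.574 points (exact permutation p = 1). Other genes held control shares of 13.2% and 12.5% and starved shares of 12.2% and 12.6%. The share differed between families, with a mean over libraries of 20.3% ± 7.11 in Fbxo, 18.05% ± 8.03 in Fbxw and 15.6% ± 4.78 in Klhl, against 8.61% ± 4.58 in Fbxl, 7.84% ± 2.76 in Rnf and 6.87% ± 2.89 in Trim (SD, n = 4). In Fbxo the 4 libraries ran from 15.4% to 30.8% and in Rnf from 5.77% to 11.9%, so that these ranges did not overlap, although each library gave Fbxo only 24 to 33 placed peaks. The tetramer GGAC, searched on the transcript strand in 200 nt at each peak centre, was present in 65.9% and 58.2% of control family windows and 63.5% and 70.2% of starved ones. Other genes held it in 63.7% ± 1.19 (SD, n = 4) of windows, and the families in 64.4% ± 5.00 (exact sign-flip p = 0.875). By family the mean share ran from 58.5% in Klhl to 82.7% in Fbxw.

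The replicates of a group shared only part of their regions. Peaks overlapping by at least 1 bp were merged over the 4 libraries, and 188 of the 340 family regions (55.3%) had a peak in 1 library only, near the 56.2% of all regions. Regions with a peak in all 4 libraries numbered 42 (12.4%), against 10.7% of all regions. Of these 42, 26 were centred in coding sequence, 14 in the 3′ UTR and 2 at the stop codon. The share called in a single library was highest in Fbxl, at 71.8% of 39 regions, and lowest in Fbxw, at 40% of 15 regions. Some single-library peaks were strong. Of the 188, 9 had a fold enrichment over 100, led by Trim45 (341.47), Trim65 (264.7) and Rnf219 (263.1), a ligase of the origin recognition complex now named Obi1, all in starved replicate 2. These 3 were picked after their values were seen, and none had a peak at that place in starved replicate 1. The matching count over all genes was not taken, so strong single-library peaks are not shown to be particular to the families. The median fold enrichment of single-library regions was 14.3 in the families and 13.1 over all regions.

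**Figure D3:**
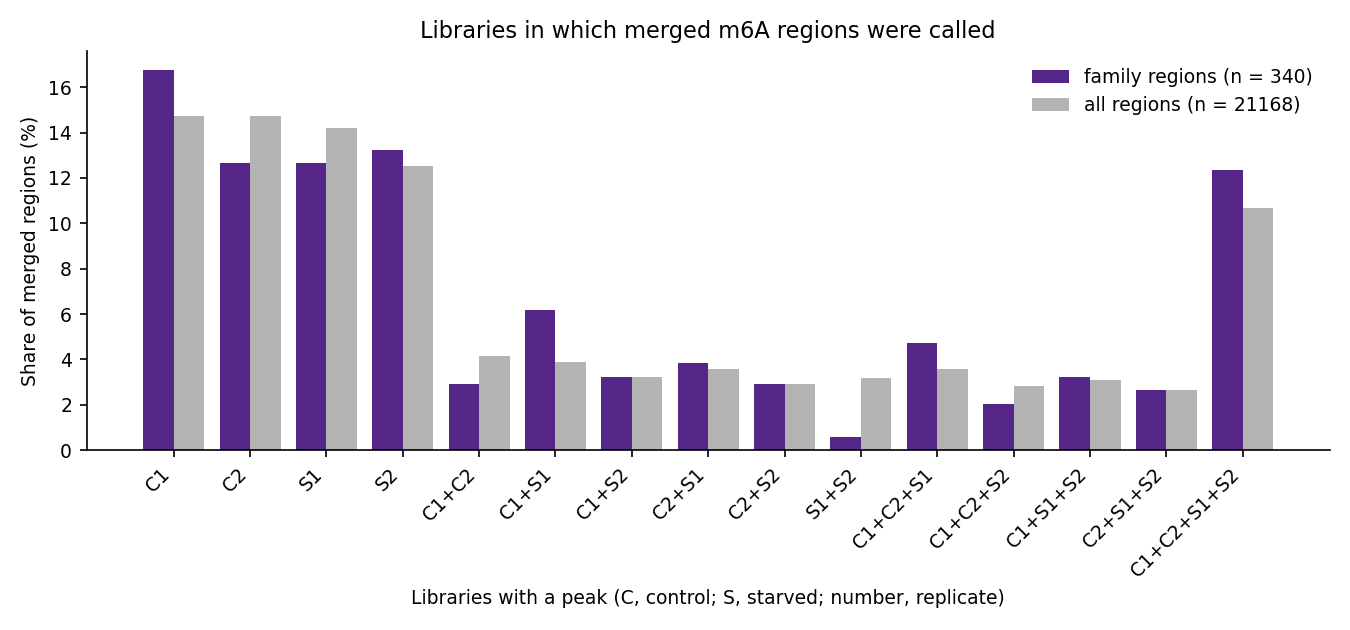
Share of merged m6A regions (vertical axis, percent) with a peak in exactly the libraries named on the horizontal axis (C, control; S, starved; number, replicate), for the 340 family regions in purple and all 21168 regions in grey. Regions of 1 library are the most frequent in both sets, and the pair of starved replicates holds 0.588% of family regions against 3.2% of all regions.

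Regions present in both replicates of one group and in neither of the other were few. In both starved and neither control library there were 2 family regions (0.588%), against 3.2% of all regions. In both control and neither starved library there were 10 (2.94%), against 4.15% of all regions. Pairs of 1 control and 1 starved library held 10 to 21 family regions each, the most in replicate 1 of both groups. By family, the control-only regions were 5 in Rnf, 2 in Fbxo and 1 each in Trim, Fbxl and Klhl, and the starved-only regions 1 each in Rnf and Klhl. With the same number of best-scoring peaks taken from each list, the starved-only count became 4, and with peaks under a false discovery rate of 20% both counts became 5.

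The starved-only regions lay in Rnf215 and Klhl28. In Rnf215 the peak had fold enrichments of 10.17 and 15.97 in starved replicates 1 and 2, in coding sequence at chr11:4139863-4140078. The nearest control peak of the gene was 408 bp away. In Klhl28, a Kelch-like adaptor, the values were 9.97 and 47.17, at the stop codon at chr12:64943126-64943613. Neither region held a GGAC.

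The strongest control-only region was in Rnf168, the ligase that ubiquitinates histone H2A at DNA breaks. Its peak had fold enrichments of 44.24 and 44.54 in control replicates 1 and 2, in coding sequence 379 nt before the stop codon. A peak of 70.76 in starved replicate 1 began 3 bp further on and ran over the stop codon into the 3′ UTR. Starved replicate 2 had no peak at that end of the gene. In Klhl25, a CUL3 adaptor for a repressor of translation, the control values were 28.24 and 43.6 in the 3′ UTR, with a starved peak 248 bp away.

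Rnf121, a membrane-bound RING ligase, had control values of 19.49 and 28.06 in the 3′ UTR, and Fbxo34 of 15.34 and 24.53 in coding sequence. Trim2, a ligase of the NHL type that acts on neurofilaments, stood at 12.7 and 16.96. Trim2 was the member among these with no starved peak anywhere in the gene. Further control-only regions, named because the list is short, were those of Fbxo28 (24.63 and 10.25), Rnf145 (8.45 and 33.79), Fbxl18 (5.46 and 11.32) and Rnf13 (9.47 and 4.71), and Rnf13 also had no starved peak. At the level of whole genes, Rnf13, Rnf2, Trim2 and Trim23 were called in each control library and not in starved cells (4 of 156 members, 2.56%, against 4.56% of all genes). Rnf43 was the reverse (1 of 156, 0.641%, against 3.19% of all genes).

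Among the 42 family regions called in all 4 libraries, both starved fold enrichments were above both control values in 12 (28.6%), against 22.9% of such regions in all genes. Both control values were above both starved values in 5 (11.9%), against 18% in all genes. With peaks under a false discovery rate of 20%, 16 family regions were called in all 4 libraries, of which 2 were starved-higher (12.5%, against 20.2% in all genes) and 4 control-higher (25%, against 22.6%). Of the 12 starved-higher regions, 9 were then no longer called in all 4 libraries, and of the 5 control-higher regions 1, in Klhl15. The median difference over the 42 regions was 0.15 on the log2 scale with 25 positive (59.5%), beside 0.10 and 54.2% over all 2257 such regions. The starved-higher regions were 5 in Rnf, 3 in Klhl, 2 in Trim and 2 in Fbxo, and the control-higher regions 2 in Rnf, 2 in Trim and 1 in Klhl. The spread between replicates was of the same size as the difference between groups. The median absolute log2 difference was 0.44 between the control replicates and 0.99 between the starved replicates, beside 0.54 between the means of the groups. In 36 of the 42 regions (85.7%) the 4 libraries' peaks had at least 1 bp in common, as had 91.8% of all such regions, and in the others they were only chained by overlap. Klhl25, Rnf169, Fbxo28, Klhl15, Rnf185 and Trim32 are among those without a common stretch. No p-value is given for single regions, which cannot go below 0.33.

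**Figure D4:**
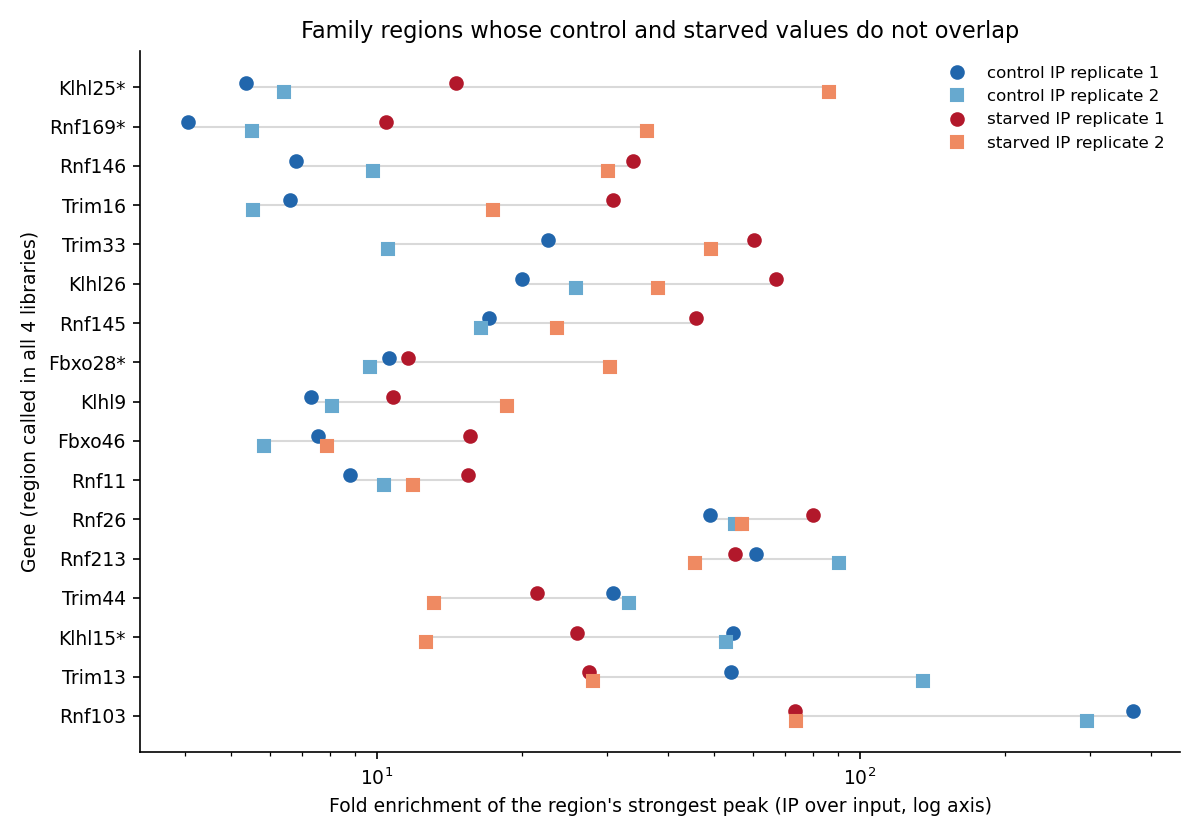
Fold enrichment (horizontal log axis, IP over input) of the strongest peak of each library in the 17 family regions whose control and starved values do not overlap; blue marks control, red and orange starved, circles replicate 1 and squares replicate 2, and an asterisk a region whose 4 peaks share no base. Starved marks lie to the right in the 12 upper regions and control marks in the 5 lower ones, with the widest gap against its replicate spread in Rnf103.

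The control-higher side was led by Rnf103, a ligase of the endoplasmic reticulum membrane. Its region in coding sequence, chr6:71508772-71510436, had fold enrichments of 366.67 and 295.39 in control replicates 1 and 2 and of 73.25 and 73.7 in starved replicates 1 and 2. Both control values were over 4 times as high as either starved value, and replicates were close to each other in both groups. The log2 difference was -2.16, with SDs of 0.22 in control and 0.01 in starved cells (n = 2 each). The 4 peaks began at the same place, to within 1 base. Only the peak of starved replicate 1 covered in full the places of the weaker separate peaks of control replicates 1 (6.01) and 2 (13.13). The peaks of starved replicate 2 (73.7) and control replicate 2 (295.39) reached only the start of the 6.01 peak. That of starved replicate 2 ended before the control peak of 13.13. Rnf103, Trim13, Trim44 and Rnf213 kept their values with peaks under a false discovery rate of 20%.

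Trim13, an endoplasmic reticulum ligase that takes part in autophagy of that membrane, had fold enrichments of 53.98 and 134.81 in control and of 27.44 and 28.0 in starved replicates, in coding sequence at chr14:61604530-61605690. The groups did not overlap, but the control replicates differed from each other by a larger factor than control replicate 1 from the starved ones. Its log2 difference was -1.62 (SDs 0.93 and 0.02, n = 2 each). Klhl15, a CUL3 adaptor for the repair factor CtIP, stood at 54.71 and 52.77 against 26.0 and 12.63, from peaks that lie at different places along the coding sequence.

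Trim44, a Trim protein with a zinc finger like that of deubiquitinases, had values of 30.76 and 33.32 in control and of 21.44 and 13.12 in starved cells, in the 3′ UTR (log2 difference -0.93). Rnf213, a very large ligase with an ATPase ring, had 60.99 and 90.66 against 55.13 and 45.51 in its longest coding exon of 3603 nt (log2 difference -0.57). In Rnf213 the nearest values of the groups, 60.99 and 55.13, were close together.

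On the starved-higher side, Rnf146, a ligase that recognises poly(ADP-ribose) and acts on axin, had a smaller spread in starved than in control replicates. Its single region, chr10:29346470-29347883, ran from -1073 to 340 nt from the stop codon, and the coding sequence begins at -1078. The region had fold enrichments of 6.79 and 9.82 in control and of 33.88 and 30.14 in starved replicates 1 and 2. Both starved values were over 3 times the higher control value. The log2 difference was 1.97 (SDs 0.38 and 0.12, n = 2 each). All 4 peaks shared 908 bp. With peaks under a false discovery rate of 20%, Rnf146 and the regions of Trim33, Trim16, Klhl25 and Rnf169 given next were no longer called in all 4 libraries.

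Trim33, a nuclear corepressor that acts on Smad4, had 22.66 and 10.54 in control and 60.35 and 49.26 in starved cells, in the 3′ UTR at chr3:103353650-103355565 (log2 difference 1.82, SDs 0.78 and 0.21). Trim16, which brings autophagy to damaged endosomes and lysosomes, had 6.62 and 5.53 against 30.84 and 17.36 near the end of its coding sequence (log2 difference 1.94, SDs 0.18 and 0.59). A second Trim16 region in the 3′ UTR, also called in all 4 libraries, had 12.55 and 54.8 against 18.36 and 63.63, with overlapping groups.

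Klhl25 had the largest difference, 2.60, with values of 5.37 and 6.42 in control and of 14.61 and 86.3 in starved cells. Rnf169, which binds the ubiquitin mark that Rnf168 sets, followed with 4.06 and 5.52 against 10.44 and 36.28. In both, starved replicate 2 alone carried most of the difference, with SDs of 1.81 and 1.27 in starved cells, and the 4 peaks had no base in common. Rnf169 was also no longer called in all 4 libraries with a minimum fold of 5 or with equal list lengths. Klhl26 had 19.96 and 25.83 against 67.03 and 38.22 (log2 difference 1.16), which became 0.21 when peaks were limited to a false discovery rate under 20%.

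The other starved-higher regions had smaller differences. They were in Rnf145, a sterol-responsive ligase of the endoplasmic reticulum (log2 difference 0.97), Fbxo28 (0.90), Klhl9, a mitotic CUL3 adaptor (0.88), Fbxo46 (0.74), Rnf11 (0.50) and Rnf26, which anchors endosomes near the nucleus (0.38). Of these, Rnf145 and Rnf26 kept their values under the 20% limit, and Fbxo28, Klhl9, Fbxo46 and Rnf11 were not called in all 4 libraries. Klhl25, Fbxo28 and Rnf145 each held a control-only region beside the starved-higher one, so that these genes had no single direction.

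**Figure D5:**
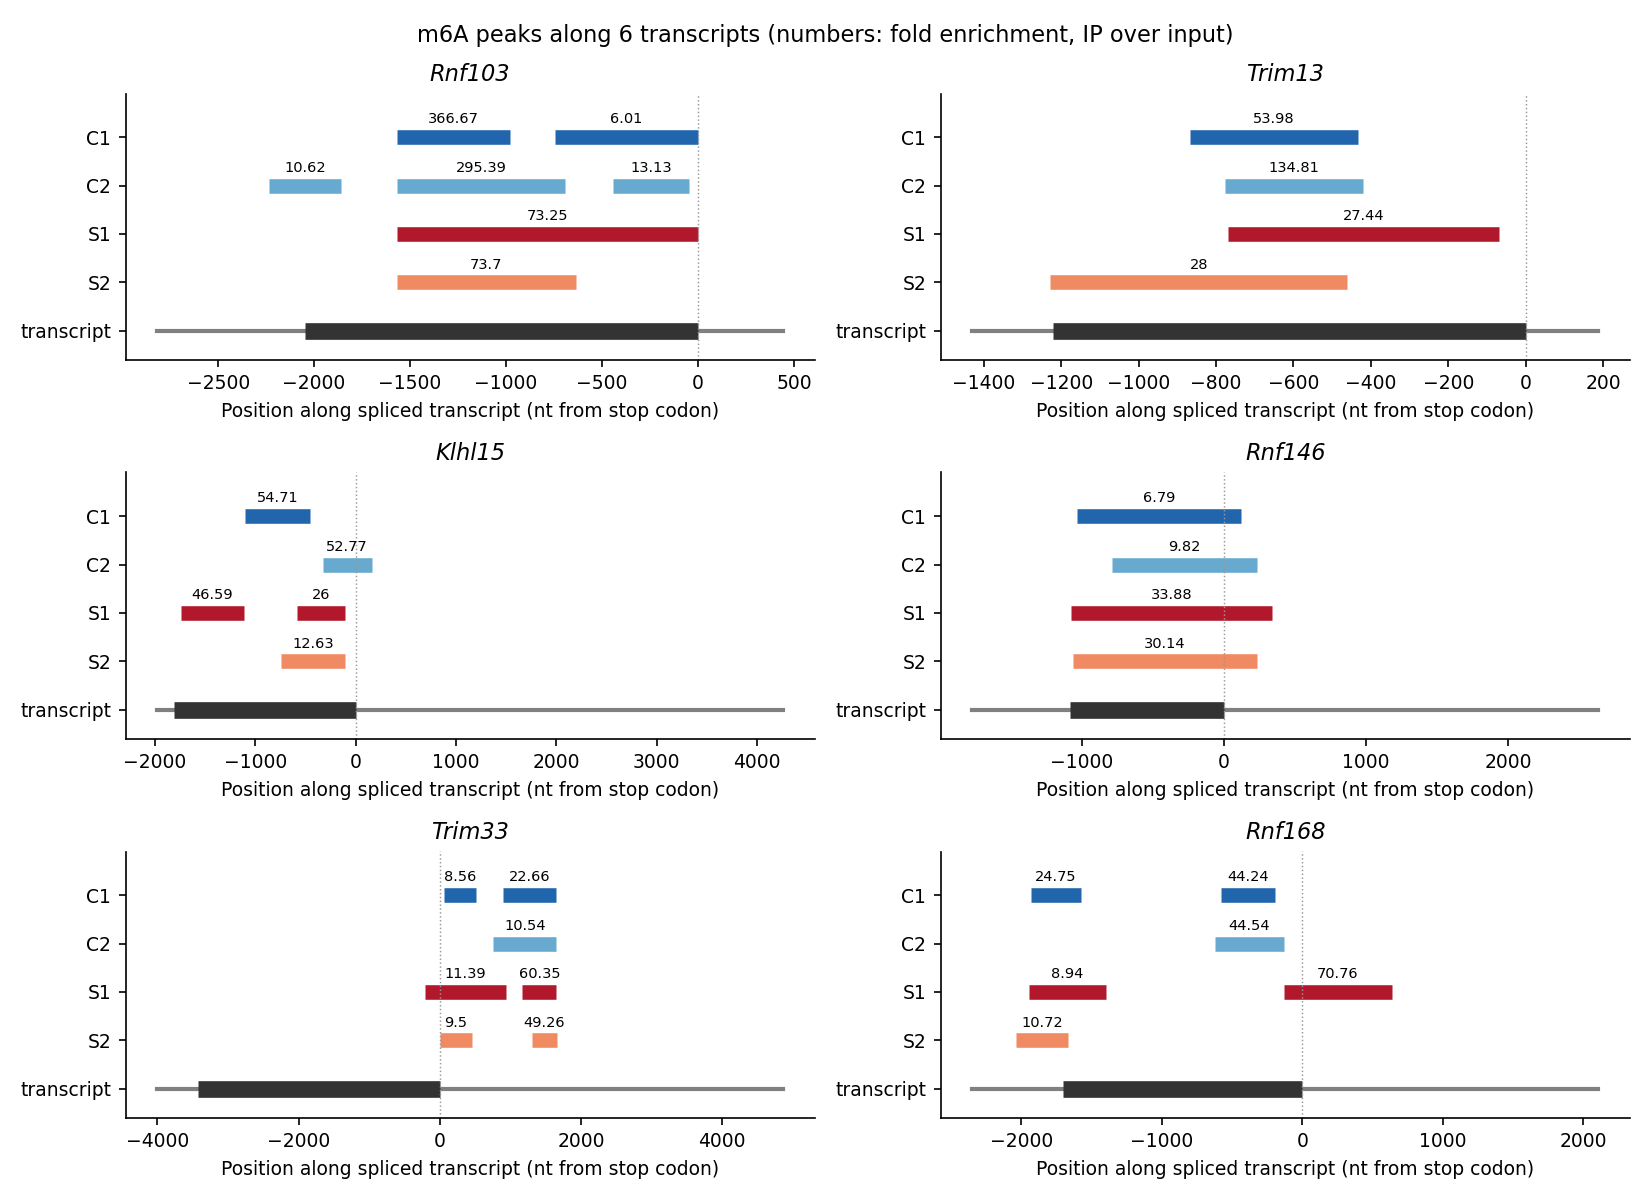
Peaks of the 4 IP libraries (C, control; S, starved; number, replicate) along the spliced transcripts of 6 members, with positions in nt from the stop codon, the coding sequence as a thick bar and the authors' fold enrichment above each peak. Peaks of Rnf146 and Rnf103 line up across libraries, those of Klhl15 do not, and the Rnf168 peak of starved replicate 1 (70.76) starts where the control peaks (44.24 and 44.54) end.

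The strongest family region belonged to Fbxw7, the receptor that marks cyclin E, Myc and Notch for degradation. Control replicates 1 and 2 gave fold enrichments of 544.4 and 263.34, and starved replicates 1 and 2 gave 540.17 and 474.54, over a coding exon of 579 nt at chr3:84903501-84904079. The groups overlapped, since control replicate 1 was the highest of all and control replicate 2 the lowest, and the log2 difference was 0.42 (SDs 0.74 and 0.13, n = 2 each). A further Fbxw7 region, from the stop codon into the 3′ UTR, had 37.42 in control replicate 1 and 35.41 and 30.36 in starved replicates 1 and 2, and no peak in control replicate 2. Fbxo11, the receptor for the repressor Bcl6, had 145.63 and 61.94 in control and 81.83 and 27.36 in starved cells, over an exon of 218 nt. These groups overlapped too.

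The next strongest regions of the F-box families were weaker, and their groups also overlapped. Fbxo46 had a coding region of 21.71 and 84.6 in control and of 98.64 and 11.66 in starved cells, a spread within each group larger than the difference between their means. In Fbxl14, a receptor for Snail proteins, the values were 18.59 and 24.54 against 56.54 and 9.43. Fbxl20 had 19.28 and 25.93 against 20.95 and 4.97, and Fbxw2 had 4.94 and 13.46 against 18.42 and 3.91. In these 4 genes starved replicate 2 was the lowest library and starved replicate 1 above it by more than 4 times.

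Of 21 members known to act in autophagy or nutrient signalling, 16 had a peak and 8 had one in all 4 libraries. Outside the families, 9623 genes had a peak, against 21634 annotated coding genes. Among all genes with a peak, 29.2% had one in all 4 libraries. The 21 members held 8 regions called in all 4 libraries, of which Trim16 was starved-higher and Trim13 control-higher. Their median log2 difference was 0.22, beside 0.10 over all genes. No region of the list was control-only or starved-only. Fbxo32 (atrogin-1), a FOXO target in wasting muscle, had 38.87 and 11.68 in control and 25.06 and 26.63 in starved cells, in the 3′ UTR. Rnf185, a ligase of the endoplasmic reticulum and mitochondria, had 8.19 and 8.79 against 12.55 and 3.38, and Trim32, a ligase of the NHL type that acts on ULK1, 8.25 and 8.25 against 5.73 and 15.07. The groups of all 3 overlapped, and the 4 libraries' peaks in Rnf185 and in Trim32 had no base in common.

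Klhl22, the CUL3 adaptor that removes DEPDC5 to activate mTORC1, had peaks in every library but at shifting places. Its best shared coding region had 30.96 in control replicate 2 and 11.7 and 21.37 in starved replicates 1 and 2. Rnf41, which acts on parkin, had a peak in 3 libraries of at most 17.0. Fbxw11, a partner of Btrc in recognising phosphorylated degrons, had peaks of 3.74 and 8.19 in control replicate 2 and starved replicate 1, and a further pair of 5.2 and 3.28. Klhl20, which ends autophagy through ULK1, had 24.98 in control replicate 2 and 14.19 in starved replicate 1, at different exons.

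The other members of the list had peaks in 1 library each. Fbxo7, a factor of mitophagy, reached 48.23 and Rnf5 7.18 in control replicate 1, and Trim21, the cytosolic antibody receptor, 37.85 in control replicate 2. In starved replicate 2, Trim65 reached 264.7 and Rnf166 4.36. Rnf152, which acts on RagA, Trim17, Trim28, Trim50 and the muscle ligase Trim63 had no peak.

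Rnf213, Trim56 and Fbxl18 had the most regions, with 10, 8 and 7. All 10 of Rnf213 lay in coding sequence, and 2 of them were called in all 4 libraries. The weaker of these had 20.73 and 10.76 in control and 25.6 and 7.61 in starved cells, and the groups overlapped. Trim56, a ligase of innate immune signalling, had 5 regions in its long 3′ UTR and 3 in coding sequence. None was called in all 4 libraries, and the strongest, in coding sequence, had 13.44 and 55.71 in control and 36.94 in starved replicate 2. Fbxl18 had 5 regions in the 3′ UTR and 2 in coding sequence, with the highest value, 71.15, in control replicate 1 alone.

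Smaller groups of related members followed no common direction. The ligases of chromatin and DNA damage all had a peak, 6 of 6, with Rnf169 starved-higher and Rnf168 control-only. Of ligases with linked RING domains (RBR), 6 of 8 had a peak, and their region in all 4 libraries, in Rnf19b, had 55.53 and 33.93 against 36.14 and 44.8. Of ligases with a protease-associated and a membrane domain, 5 of 7 had a peak, of Trim proteins with a PHD finger and bromodomain 3 of 4, and of those with NHL repeats 4 of 4. Both SUMO-targeted ligases, Rnf4 and Rnf111, had peaks. These counts stand beside 9623 genes with a peak and 21634 annotated coding genes outside the families.

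The rest of the ubiquitin pathway was a list of 58 genes outside the families. It held E1 enzymes, cullins and their partners, adaptors and other RING ligases. A peak lay in 51 of its genes, and in all 4 libraries in 17, beside 29.2% of all genes with a peak. Of its 11 regions in all 4 libraries, 4 were starved-higher and 0 control-higher, beside 22.9% and 18% of such regions in all genes, with a median log2 difference of 0.24, beside 0.10. The 4 were in Cand1, the exchange factor of cullins, the CUL3 adaptors Enc1 and Kbtbd2, and Dcun1d2, which helps to attach Nedd8. Of its 105 regions, 5 were starved-only (2 in Cul7 and 1 each in Keap1, Cbl and Pml) and 5 control-only (Enc1, Siah2, Dcun1d4, Mid2 and Mid1), beside 3.2% and 4.15% of all regions. E1 enzymes had a peak in 6 of 6 genes, cullins in 7 of 8 and other RING ligases in 19 of 19. Over all genes outside the families, 9623 had a peak, against 21634 annotated coding genes.

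The labelled cell type could be checked only through methylated transcripts. Of 12 fibroblast markers, 9 had a peak, 3 of them in all 4 libraries, while Col1a1, Vim and Lox had none. Of 10 markers of epithelium, endothelium, blood, muscle and neurons, 4 had a peak in some library and 0 in all 4. A peak does not give the level of a transcript, so these counts are no measure of purity. The 4 lists held 8974 to 10103 peaks in 5839 to 6387 genes, with starved replicate 2 the shortest.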

How the data were processed

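MeRIP-seq had been made from MEFs in 4 groups of 2 (control or starved, IP or input), grouped here by sample titles. Per the labels and the study's methods, the authors purified mRNA, made directional libraries, aligned reads to mm10 with HISAT2 2.0.4, called peaks of each IP library over its input with MACS2 and kept peaks on mRNA exons. The column names of the lists are those of an earlier MACS series, so the caller's version is uncertain. The authors deposited the fold enrichment, a ratio of IP over the input signal around a peak. The deposited score is minus 10 times the log10 of a peak's p-value, with many peaks at 3100 and a maximum of 3233.06. The authors give the false discovery rate as a percent. A further deposited table, the authors' comparison of starved with control sites (fold changes and p-values), was not used. All columns in use were tied to a sample, with 0 unmapped. No depth is given, so no counting error could be computed, and a deeper library gives more peaks at the same enrichment.

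Peaks overlapping by 1 bp over the 4 lists were merged, and a region's value in a library was its strongest peak. Peaks were placed on the coding transcript with the longest coding sequence (GENCODE M21), with 100 nt either side of the stop codon as its window. GGAC was searched in 200 nt at the centre. The coding genes of each family were counted in the RefSeq gene list. Members were matched by the deposited gene names, 2 of which have since been renamed (Rnf219 and Fbxo18). Libraries were the unit of replication, with two-sided exact permutation tests (2 against 2) or sign-flip tests (4 differences) and Benjamini-Hochberg adjustment over 10 and 7 comparisons. Counts of regions were set beside the percent over all regions, with no test.

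Regions were named by rule: the 6 group-only regions per direction with the highest lower value, the 5 ordered regions per direction with the largest difference, the 2 strongest regions of each family, the 21 autophagy and nutrient ligases, and the 3 genes with the most regions. A named region is not reported here. Members and lists were chosen with earlier results of these data known. Alternatives were a minimum fold of 5, a false discovery rate under 20%, equal list lengths, current symbols, 100 bp of overlap, other windows, transcripts and motifs, the replicate block, each library left out, and, added after seeing the data, regions with a common stretch. Merging into regions, library patterns, orders, the member count, the smallest p-values and transcript placement were tested on simulated data. There were 17 quantities and 3000 simulated regions, and 17 were recovered. The simulated regions lay apart, so chained regions were not covered, nor were medians, segment shares or the GGAC search. Python 3.11.15, numpy 2.4.6, pandas 2.3.3, scipy 1.17.1, matplotlib 3.10.9 and samtools 1.23.1 were used.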

Additional observations from a re-analysis of the deposited data

How the results depend on the processing

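Peak lists without reads, 2 libraries a group and chained regions limit all values. With a false discovery rate under 20%, starved minus control became 10.5 peaks, 6.5 genes and 0.735 points for the 3′ UTR share, all reversed, regions in all 4 libraries numbered 16, starved-only and control-only regions 5 each, starved-higher regions 2 and control-higher regions 4. With equal list lengths the 3′ UTR difference was 0.303 points and starved-only regions 4. With a stop codon window of 50 nt the 3′ UTR difference was 0.625 points and that of the stop codon 0.574 (exact permutation p = 1). With the wider DRACH motif the GGAC differences became -0.179 (starved minus control) and -0.551 points (family minus other). The cause of these changes was not tested. Leaving out 1 library in turn, 5 results changed sign. Starved minus control ran from -6.28 to 3.32 points for coding sequence (positive without control replicate 1 or starved replicate 2), from -2.12 to 0.780 for the 5′ UTR (positive without control replicate 2 or starved replicate 1), from -5.00 to 2.39 for the 3′ UTR (positive without starved replicate 1) and from -0.081 to 0.23 for the family-minus-other median. The family-minus-other GGAC difference ran from -0.885 to 2.80 points (negative without control replicate 1 or starved replicate 2). Starved minus control stayed negative for peaks (-28.5 to -8.5) and genes (-14 to -1). The coding and 5′ UTR differences from other genes kept their direction under all alternatives run, at 5.05 to 8.16 and -2.91 to -1.71 points. Over the 2257 regions in all 4 libraries, same-numbered libraries did not deviate together (r = -0.02). That value cannot tell whether same-numbered samples were made together, since samples made together need not deviate together in fold enrichment. The main tests left the numbers unpaired. With the replicate block the differences were the same by construction (-18.5 peaks, log2 0.33), with p = 0.5, the smallest an exact test of 2 pairs gives, or 1. In all, 177 of 198 alternative values of the main results kept their direction or size. That count includes the replicate block, whose values could not change, so it is no measure of stability.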
